A study of Mus musculus with 4 samples.

Results

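Interferon-stimulated genes are the transcripts that cells switch on when interferon reaches them, and 34 of them were followed here by exact match of gene symbol among the 24391 genes counted. All 34 were found, and all 34 passed the filter on low counts, which left 16001 genes. The samples were 4 mouse lung tumours. In the group labelled K-Ras (2 libraries), mice carried K-Ras LSL-G12D, an oncogenic allele that stays silent until Cre recombinase removes a stop cassette. In the group labelled K-Ras Mll4-/- (2 libraries), mice carried the same allele together with floxed Mll4 (Mll4 fl/fl), so the K-Ras allele is shared by both groups. Mll4, now named Kmt2d, encodes a histone methyltransferase of enhancers. The labels name no strain, age or sex, no source of Cre, and do not say whether the replicates came from separate mice, so p-values measure only the spread between these libraries. Cells bearing CD45, the leukocyte surface antigen, had been depleted before RNA extraction in every sample.

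Interferons are secreted signals of infection and of misplaced nucleic acids. Type I and type III interferons act through the JAK1 and TYK2 kinases on a complex with STAT2 and IRF9 that binds the interferon-stimulated response element in promoters. Type II interferon, or interferon gamma, acts through JAK1 and JAK2 and on gamma-activated sites. The induced proteins sense viral RNA, degrade it, block its translation or attack membranes that hold microbes. In lung tumours such transcripts can come from the epithelium, vessels, stroma and leukocytes alike.

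No member differed between the groups at an adjusted p under 0.05 (edgeR quasi-likelihood test, Benjamini-Hochberg adjustment over all genes tested), where the background was 0.0375% of genes called. The adjusted p of the members ran from 0.185 to 0.982. At an unadjusted p under 0.05 there were 3 members, Mx1 and Irgm1 above 0 and Ifi35 below 0, or 8.82% of the 34 against 21.8% of all genes tested. DESeq2 and the edgeR likelihood ratio test each called 1 member, Mx1, where 10.0% and 9.39% of all genes were called (5.02% and 4.85% higher in K-Ras Mll4-/-). Limma-voom called 0 members and 0 of all 16001 genes tested. It put 4 of the 34 members at an unadjusted p under 0.05, against 3228 of the 16001 genes. With replicate numbers as a block, 1 member, again Mx1, was called, against 1.36% of all genes (1.24% higher). The median log2 fold change of the members was -0.05, beside -0.01 over all genes tested. Of the members 16 were above 0 and 18 below, where 48.8% of all genes tested were above 0. For 15 members the log2 fold change lay within 0.25 of 0. The K-Ras Mll4-/- libraries were both above the K-Ras libraries for 11 members and both below them for 7, so that the groups did not overlap for 52.9% of members against 58.3% of all genes tested.

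Promoters show the sequence through which these genes are read. RefSeq promoter windows of 300 bases, from 250 before to 50 after a gene's start (GRCm38.p6), were matched by symbol for 26 members; Dhx58, Zbp1, Oas2, Usp18, Mx1, Mx2, Parp14 and Rtp4 had no entry. The core of the interferon-stimulated response element was searched as GAAA, any 2 bases and GAAA, and the core of the gamma-activated site as TTC, any 3 bases and GAA. Both strands were searched, and overlapping matches were kept. The first was found in 15 of the 26 members (57.7%) and in 3.99% of all 27025 genes with a window, and the second in 8 members (30.8%) and in 9.55% of all genes. Both were present in 4 members and neither in 7, which were Irf7, Irf9, Oasl1, Oasl2, Trim25, Xaf1 and Ifi44. A match is a description of letters in this window and not a shown binding site. The stretches below are taken from before the start, read in the direction of the gene, with matched bases in capitals. They are shown because they cover GTPase genes, Oas3 and Ifit3, which stood higher in the K-Ras Mll4-/- libraries, members with near-equal group means, the gamma-activated site of Irf1, and Bst2, which stood lower.
Gbp2 (chr3:142620584-142620633, plus strand): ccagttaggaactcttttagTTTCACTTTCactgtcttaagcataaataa
Gbp3 (chr3:142559979-142560028, plus strand): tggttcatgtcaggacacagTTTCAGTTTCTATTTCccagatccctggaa
Igtp (chr11:58199502-58199551, plus strand): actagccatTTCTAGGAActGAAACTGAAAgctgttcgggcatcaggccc
Irgm1 (chr11:48871421-48871470, minus strand): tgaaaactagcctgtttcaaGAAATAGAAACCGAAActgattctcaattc
Oas3 (chr5:120777705-120777754, minus strand): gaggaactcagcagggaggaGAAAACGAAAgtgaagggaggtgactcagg
Ifit3 (chr19:34583387-34583436, plus strand): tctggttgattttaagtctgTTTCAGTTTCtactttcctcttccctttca
Ifit1 (chr19:34640784-34640833, plus strand): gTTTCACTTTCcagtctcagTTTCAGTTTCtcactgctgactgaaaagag
Isg15 (chr4:156200861-156200910, minus strand): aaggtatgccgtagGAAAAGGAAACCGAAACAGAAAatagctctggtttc
Irf1 (chr11:53769904-53769952, plus strand): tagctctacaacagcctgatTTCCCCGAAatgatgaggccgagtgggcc
Bst2 (chr8:71537573-71537622, minus strand): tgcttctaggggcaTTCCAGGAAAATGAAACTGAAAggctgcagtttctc

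The first match to the response element of the 4 GTPase genes began 59 bases before the start in Gbp2, 45 in Gbp3, 34 in Igtp and 30 in Irgm1. In Isg15 matches overlapped in a run of 3, whose first began 78 bases before the start. The Irf1 window held a match to the gamma-activated site alone. In Bst2 the 2 motifs overlapped each other. The response element was present both in members that stood higher in K-Ras Mll4-/- libraries (Gbp2, Oas3, Ifit3) and in members with near-equal group means (Ifit1, Isg15) or a lower one (Bst2).

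Depth allowed every member to be measured. Reads assigned to genes numbered from 26683033 to 36677987 per library, the members took from 36 (Mx2 and Isg15) to 6839 reads (Parp14), and 30 of the 34 had at least 100 reads in every library. Expression is given in CPM, a gene's reads relative to its library's size, with TMM scaling between libraries (the trimmed mean of log ratios). Log2 fold changes and log2 differences are K-Ras Mll4-/- minus K-Ras. Counting error allows a gene with 0 reads up to 0.0830 to 0.114 CPM, the level of 3 reads. Kmt2d was at 395 and 526 CPM in the K-Ras libraries and at 367 and 317 CPM in the K-Ras Mll4-/- libraries (log2 fold change -0.43, SE 0.21, edgeR adjusted p = 0.302). A count over the whole gene cannot show a deletion of part of it, so the genotype rests on the labels. Ptprc, the gene of CD45, was at 143 to 274 CPM, so leukocyte RNA remained after depletion.

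Levels were compared between members per kilobase of merged exon (GENCODE M21), as CPM per kb. Gbp2, a guanylate-binding GTPase, had the highest mean over the 4 libraries at 44.1 CPM per kb, followed by Irf1 at 37.0, Ifi35 at 19.6, Igtp at 19.2 and Trim25 at 19.1 CPM per kb. Gbp2 stood at 22.5 and 43.7 CPM per kb in the K-Ras and at 54.1 and 56.2 CPM per kb in the K-Ras Mll4-/- libraries. Irf1 stood at 35.1 and 44.3 against 36.6 and 31.9 CPM per kb. Gbp2 was above Irf1 in both K-Ras Mll4-/- libraries and below it in both K-Ras libraries, by little in replicate 2. The order of the means pools both groups: in the K-Ras libraries alone Irf1 led, at 39.7 against 33.1 CPM per kb for Gbp2, and Igtp, at 14.5, was below Trim25, at 20.3 CPM per kb. Lowest were Oas3 at 0.952, Ifi44 at 0.734 and Mx2 at 0.538 CPM per kb. Isg15, the ubiquitin-like protein whose gene is among the most strongly induced by interferon, was at only 2.06 CPM per kb.

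**Figure D1:**
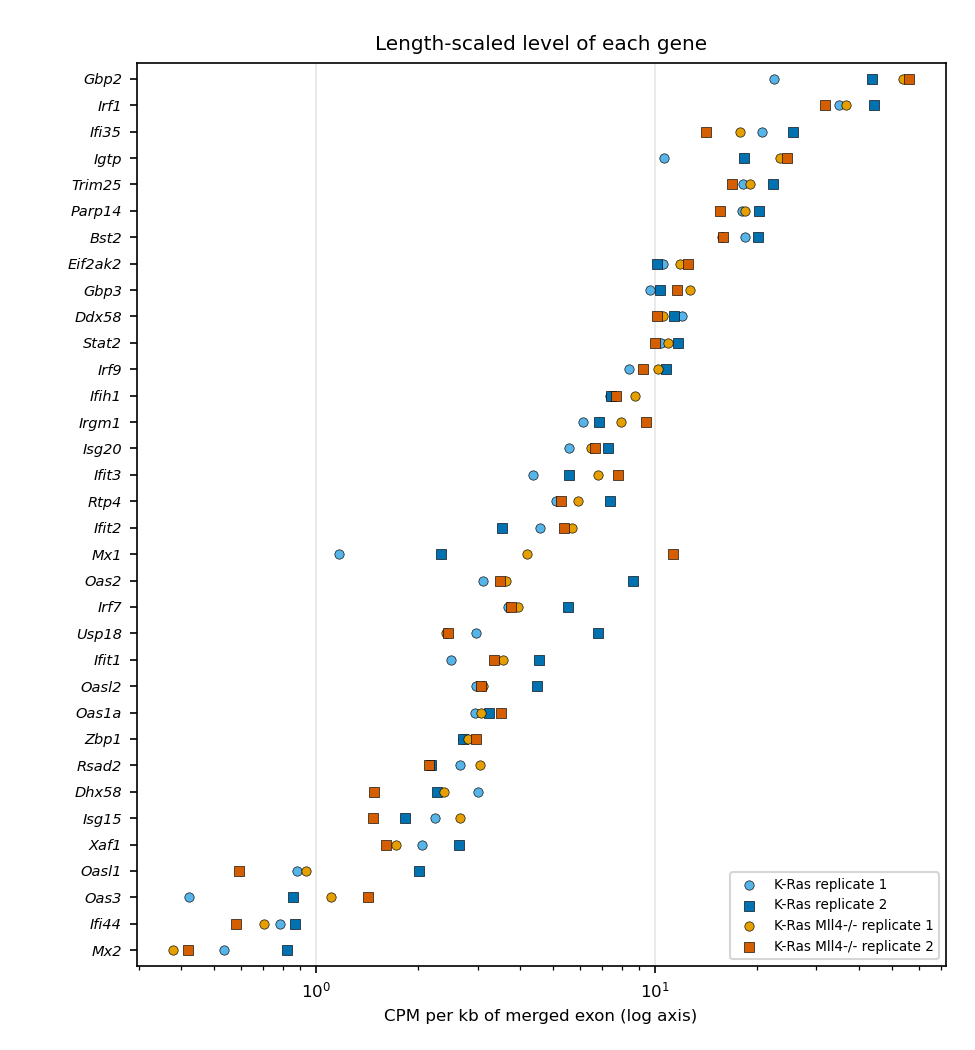
Level of each of the 34 interferon-stimulated genes in CPM per kb of merged exon (log axis), 1 point per library, genes ordered by their mean over the 4 libraries. Levels run from Mx2, at a mean of 0.538, to Gbp2, at a mean of 44.1, and the 4 libraries of most genes lie close together, with Mx1, Oas2 and Usp18 among the widest.

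The 2 K-Ras libraries differed from each other in most members. For 27 of the 34 members (79.4%) K-Ras replicate 2 was above K-Ras replicate 1, against 52.2% of all genes tested. K-Ras replicate 2 held the highest of the 4 values for 18 members (52.9%, against 29.3% of all genes tested), and K-Ras replicate 1 the lowest for 16 (47.1%, against 27.3%). The median absolute log2 difference between the K-Ras replicates was 0.34 for members and 0.26 for all genes tested. Between the K-Ras Mll4-/- replicates it was 0.14 for members and 0.18 for all genes. In some members the gap between the K-Ras replicates exceeded the log2 fold change between the groups (17 of 34, against 42.4% of all genes tested).

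**Figure D2:**
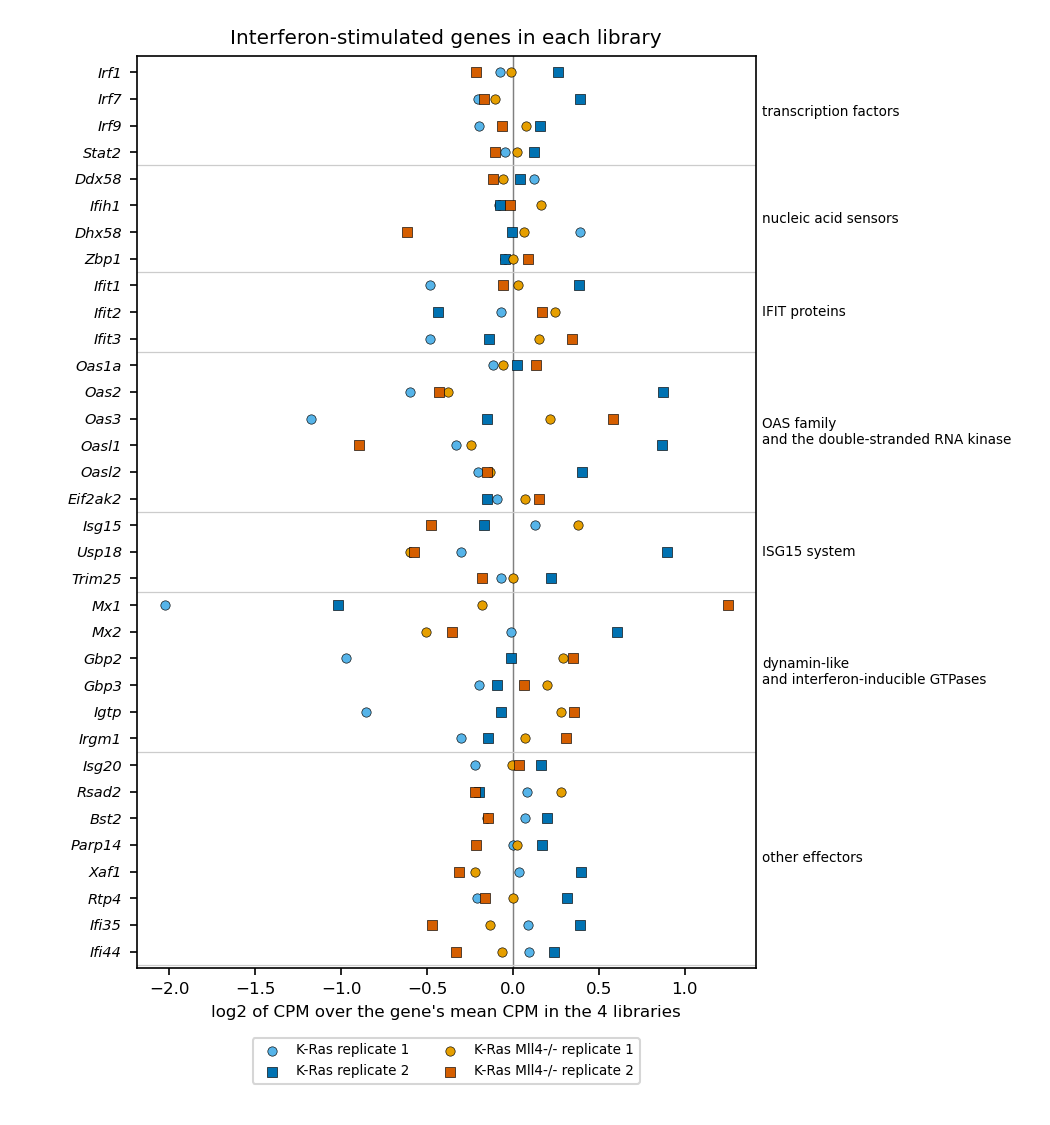
Each interferon-stimulated gene in each library, as log2 of its CPM over the mean of its 4 CPM values, grouped by role. K-Ras replicate 2 lies furthest right for 18 genes, K-Ras replicate 1 furthest left for 16, and the K-Ras Mll4-/- replicates mostly lie together, with Mx1, Dhx58, Isg15 and Oasl1 among the exceptions.

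The GTPases were the only role group in which the libraries of the 2 genotypes were separate for every gene. Over all genes tested, 58.3% were separate in either direction. For 5 of the 6 GTPases both K-Ras Mll4-/- libraries were higher (the background for that direction was 29.9%). These counts describe only the 6 genes, and none of them was called. Mx1 encodes a dynamin-like GTPase that blocks viral replication in the nucleus, and many inbred strains carry a defective allele of it. It was at 4.41 and 8.88 CPM in the K-Ras libraries and at 15.9 and 42.8 CPM in the K-Ras Mll4-/- libraries, so the groups were apart while K-Ras Mll4-/- replicate 2 stood far above its own replicate. The means were 6.65 ± 3.16 and 29.4 ± 19.1 CPM (SD, n = 2 each), with a log2 difference of 2.14 (SE 0.62, unadjusted p = 0.0215, edgeR adjusted p = 0.185). Without K-Ras Mll4-/- replicate 2 the log2 fold change was 1.24. DESeq2 called it (adjusted p = 0.00412), as did the likelihood ratio test of edgeR (adjusted p = 0.0147), and limma-voom did not (adjusted p = 0.222).

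Mx2, the neighbour of Mx1 on chromosome 16 and a cytoplasmic dynamin-like GTPase, lay the other way. It was at 1.93 and 2.96 CPM in the K-Ras libraries and at 1.37 and 1.52 CPM in the K-Ras Mll4-/- libraries, on 36 to 107 reads. Both K-Ras Mll4-/- libraries were below both K-Ras libraries, with a log2 difference of -0.76 (SE 0.39, edgeR adjusted p = 0.316). Without K-Ras replicate 2 it was -0.43. Of the 50-base stretches of Mx2, 4.38% also occur in Mx1.

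Gbp2 and Igtp, which both encode interferon-inducible GTPases, shared an order of libraries. Gbp2 was at 56.6 and 110.0 CPM in the K-Ras libraries and at 136 and 141 CPM in the K-Ras Mll4-/- libraries. Igtp was at 21.5 and 37.1 CPM in the K-Ras libraries and at 47.3 and 49.7 CPM in the K-Ras Mll4-/- libraries. For both genes K-Ras replicate 1 was low, the K-Ras Mll4-/- replicates were nearly equal, and K-Ras replicate 2 lay between. The log2 fold change was 0.74 for Gbp2 (SE 0.34, edgeR adjusted p = 0.285) and 0.73 for Igtp (SE 0.29, edgeR adjusted p = 0.244). Without K-Ras replicate 1 these were 0.34 and 0.39, and without K-Ras replicate 2 they were 1.28 and 1.16. Igtp shares 11.8% of its 50-base stretches with Irgm2, which limits the certainty of its count.

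Irgm1, a GTPase that regulates autophagy of microbes, was at 35.7 and 39.8 CPM in the K-Ras libraries and at 46.3 and 54.6 CPM in the K-Ras Mll4-/- libraries. The groups did not overlap, with a log2 difference of 0.42 (SE 0.15, unadjusted p = 0.0421, edgeR adjusted p = 0.217). Gbp3, the guanylate-binding neighbour of Gbp2, was at 31.6 and 33.9 against 41.6 and 37.9 CPM, with a log2 difference of 0.28 (SE 0.13, edgeR adjusted p = 0.297).

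**Figure D3:**
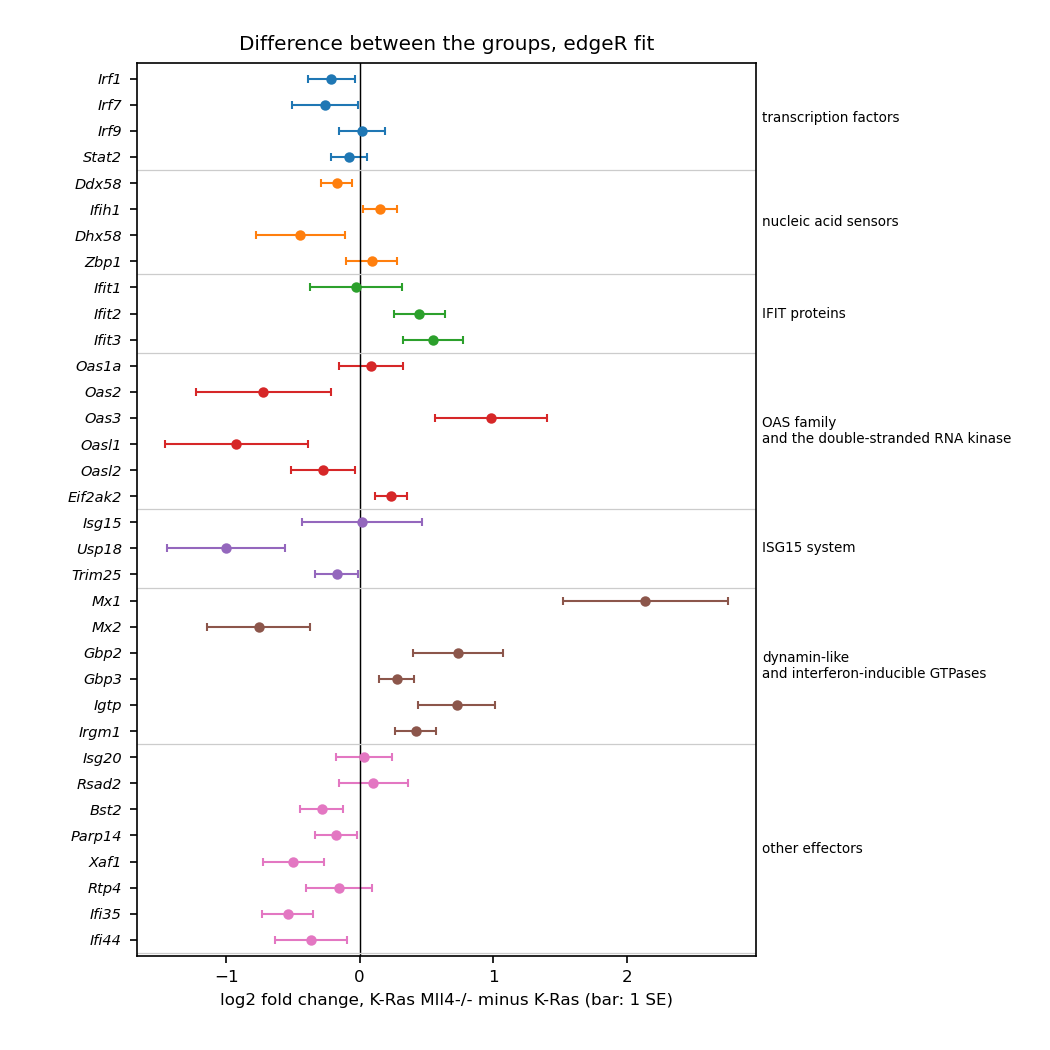
Log2 fold change of each interferon-stimulated gene, K-Ras Mll4-/- minus K-Ras, from the edgeR fit, with bars of 1 SE, grouped by role. Mx1 is furthest right at 2.14 and Usp18 furthest left at -1.004, and no gene has an adjusted p under 0.05.

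The oligoadenylate synthetases detect double-stranded RNA and make the messenger that activates RNase L, and their genes went in different directions. Oas3 was at 2.98 and 6.06 CPM in the K-Ras libraries and at 7.81 and 10.1 CPM in the K-Ras Mll4-/- libraries. Both K-Ras Mll4-/- libraries were higher, with a log2 difference of 0.98 (SE 0.42, edgeR adjusted p = 0.262), or 0.56 without K-Ras replicate 1 and 1.57 without K-Ras replicate 2. Oas2, next to it on chromosome 5, was at 13.9 and 38.5 CPM in the K-Ras libraries and at 16.2 and 15.6 CPM in the K-Ras Mll4-/- libraries. Only K-Ras replicate 2 stood apart for Oas2, so its log2 difference of -0.72 (SE 0.51, edgeR adjusted p = 0.448) was 0.18 without that library. Oas2 was called lower in K-Ras Mll4-/- without K-Ras replicate 1 (log2 fold change -1.28, edgeR adjusted p = 0.0441). That fit called 3.27% of all genes (2.61% lower) and assumes that the lone K-Ras library varies like the K-Ras Mll4-/- libraries.

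Oasl1, an oligoadenylate synthetase-like protein that represses the translation of Irf7, was at 2.29 and 5.26 CPM in the K-Ras libraries and at 2.44 and 1.55 CPM in the K-Ras Mll4-/- libraries. The groups overlapped, with a log2 difference of -0.92 (SE 0.54, edgeR adjusted p = 0.367), and it was -0.22 without K-Ras replicate 2. Oasl2 was at 18.9 and 28.7 CPM against 19.8 and 19.6 CPM, again with K-Ras replicate 2 alone on the high side. Oas1a, at 5.56 to 6.61 CPM in the 4 libraries, overlapped, and 57.6% of its 50-base stretches occur in Oas1g, so its count covers only part of the transcript. Eif2ak2, the PKR kinase that halts translation on sensing double-stranded RNA, was at 54.0 and 52.0 CPM in K-Ras and at 60.5 and 64.2 CPM in K-Ras Mll4-/- libraries, with a log2 difference of 0.23 (SE 0.12, edgeR adjusted p = 0.316).

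Among genes of the ISG15 system, Usp18 removes ISG15 from proteins and dampens the type I receptor. It was at 8.27 and 19.0 CPM in the K-Ras libraries and at 6.74 and 6.86 CPM in the K-Ras Mll4-/- libraries. The K-Ras Mll4-/- replicates were nearly equal and below both K-Ras libraries, of which replicate 2 was 2.29 times replicate 1. The log2 fold change was -1.004 (SE 0.44, edgeR adjusted p = 0.271). Without K-Ras replicate 2 it was -0.30, and without K-Ras replicate 1 it was -1.48, where Usp18 was called (edgeR adjusted p = 0.0470), Oas2 being the only other member called there. Isg15 itself was at 1.70 and 1.38 CPM in K-Ras and at 2.02 and 1.12 CPM in K-Ras Mll4-/- libraries, on 36 to 53 reads, and the log2 fold change of 0.02 had an SE of 0.45. Trim25, a ubiquitin ligase of the RIG-I pathway, overlapped between the groups at 97.02 to 128 CPM.

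Transcription factors of the response were close between the groups, and all 4 overlapped. Irf1, a factor that interferon gamma induces, was at 139 and 176 CPM in the K-Ras libraries and at 146 and 127 CPM in the K-Ras Mll4-/- libraries (log2 fold change -0.21, SE 0.18, edgeR adjusted p = 0.513). Irf7, the amplifier of type I interferon genes, was at 13.9 and 20.9 CPM against 14.9 and 14.2 CPM (log2 fold change -0.26, SE 0.25, edgeR adjusted p = 0.574). K-Ras replicate 2 was the highest library for Irf1, Irf7, Irf9 and Stat2 alike. Irf9 and Stat2, which take part in the type I complex, had log2 fold changes of 0.02 (SE 0.17) and -0.08 (SE 0.13).

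The nucleic acid sensors varied least between the K-Ras replicates of the 7 role groups, with a median absolute log2 difference of 0.04. Ddx58, which encodes the RNA sensor RIG-I, was at 84.7 and 80.1 CPM in K-Ras and at 74.6 and 71.8 CPM in K-Ras Mll4-/- libraries, a log2 difference of -0.17 (SE 0.12, edgeR adjusted p = 0.437). Ifih1, the gene of the long-RNA sensor MDA5, was at 60.1 and 60.4 CPM against 71.1 and 62.9 CPM, a log2 difference of 0.15 (SE 0.13, edgeR adjusted p = 0.516). Dhx58, the gene of the related helicase LGP2, had a log2 difference of -0.45 (SE 0.33) with overlapping groups. Zbp1, a sensor of Z-form nucleic acid that can start necroptosis, was at 9.57 to 10.5 CPM in the 4 libraries.

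The IFIT proteins bind foreign RNA ends, and 2 of their 3 genes lay higher in both K-Ras Mll4-/- libraries, as did 29.9% of all genes tested. Ifit2 was at 17.99 and 13.9 CPM in K-Ras and at 22.3 and 21.2 CPM in K-Ras Mll4-/- libraries (log2 fold change 0.45, SE 0.19, edgeR adjusted p = 0.259). Ifit3 was at 7.65 and 9.74 CPM against 11.9 and 13.6 CPM (log2 fold change 0.55, SE 0.22, edgeR adjusted p = 0.247), and 51.2% of its 50-base stretches occur in Ifit3b. Ifit1 overlapped, at 6.64 and 12.1 CPM against 9.48 and 8.90 CPM.

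Of the other 8 effectors, 6 had a log2 fold change below 0, where 48.8% of all genes tested were above 0. In 4 of the 8, both K-Ras Mll4-/- libraries were below both K-Ras libraries (background 28.5%). Ifi35, which forms a complex with Nmi, was at 35.9 and 44.2 CPM in the K-Ras libraries and at 30.8 and 24.4 CPM in the K-Ras Mll4-/- libraries. The groups did not overlap, and the log2 fold change was -0.54 (SE 0.19, unadjusted p = 0.0418, edgeR adjusted p = 0.217). Bst2, or tetherin, which holds budding virus at the cell surface, was at 16.6 and 18.2 CPM against 14.3 and 14.3 CPM (log2 fold change -0.28, SE 0.16). Xaf1, an antagonist of the apoptosis inhibitor XIAP, had a log2 difference of -0.50 (SE 0.23, edgeR adjusted p = 0.281), and Ifi44 one of -0.36 (SE 0.27). Parp14, a mono-ADP-ribosyltransferase, had the most reads of any member and overlapped at 145 to 189 CPM. The RNA exonuclease gene Isg20, the viperin gene Rsad2 and Rtp4 also overlapped, with log2 fold changes of 0.03, 0.10 and -0.16 and SEs of 0.21, 0.26 and 0.25.

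Most ligands upstream of these genes were not detected, while Ifng and Ifnk were measured at low levels. Of 21 interferon genes listed, 17 had 0 reads in all 4 libraries, among them all listed Ifna genes and the type III genes Ifnl2 and Ifnl3. Ifnb1 had 1 read in all, in K-Ras replicate 2, and Ifnz had 1 or 2 reads a library. Ifng, the interferon gamma gene, had 58 and 95 reads in the K-Ras libraries and 30 and 90 in the K-Ras Mll4-/- libraries, or 1.90 and 2.63 against 1.14 and 2.79 CPM. Ifnk had 22 to 64 reads a library. Neither passed the test, with log2 fold changes of -0.20 (SE 0.54, edgeR adjusted p = 0.857) for Ifng and 0.27 (SE 0.54, edgeR adjusted p = 0.795) for Ifnk.

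Receptors and kinases were all expressed, and 0 of the 10 were called. Ifnar1 and Ifnar2, the type I receptor chains, had log2 fold changes of -0.17 (SE 0.14) and -0.24 (SE 0.19). Ifngr1 and Ifngr2, the interferon gamma receptor chains, had -0.19 (SE 0.21) and 0.25 (SE 0.22). Ifnlr1 and Il10rb, the type III chains, had 0.02 (SE 0.24) and 0.18 (SE 0.13).

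Among 16 listed sensors and adaptors tested, 0 were called, and their median log2 fold change was -0.07. An unadjusted p under 0.05 was reached by 0 of them, against 21.8% of all genes tested. Among 16 regulators, 0 were called, with 1 at an unadjusted p under 0.05 on each side (12.5%, against 21.8% of all genes tested). Socs3, a feedback inhibitor of JAK kinases, was at 223 and 235 CPM in the K-Ras libraries and at 137 and 114 CPM in the K-Ras Mll4-/- libraries (log2 fold change -0.87, SE 0.16, edgeR adjusted p = 0.147). Rnaseh2a, a subunit of the enzyme that removes ribonucleotides from DNA, was at 11.9 and 12.2 against 18.1 and 20.1 CPM (log2 fold change 0.67, SE 0.17, edgeR adjusted p = 0.168). These 2 were named after their values were seen. Of 57 other interferon-induced genes tested, 0 were called, and the median log2 fold change was -0.01. At an unadjusted p under 0.05, 1 lay above 0 and 6 below 0, together 12.3% of the 57. Over all genes tested that share was 21.8%, with 1822 of 16001 genes above 0 and 1662 below. Ifitm1, of a family of membrane proteins that block virus entry, was at 15.3 and 11.1 CPM in the K-Ras libraries and at 5.22 and 3.54 CPM in the K-Ras Mll4-/- libraries (log2 fold change -1.59, SE 0.31, unadjusted p = 0.00485, edgeR adjusted p = 0.150).

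**Figure D4:**
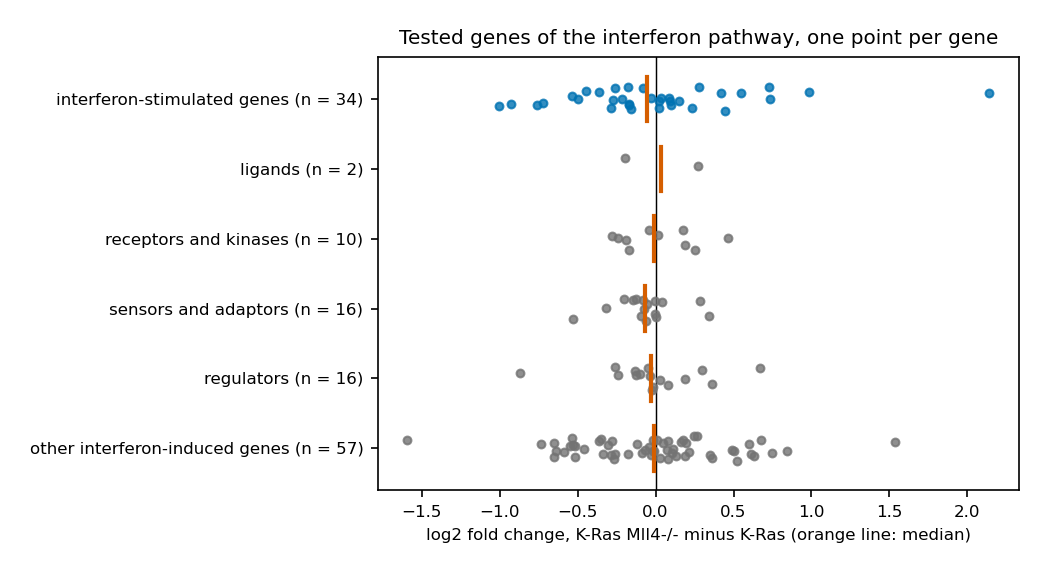
Log2 fold change, K-Ras Mll4-/- minus K-Ras, of each tested gene of the interferon lists, 1 point per gene, with the median of each list as an orange line. Medians of all 6 lists lie close to 0, and the single genes furthest out are Mx1 at 2.14 and Ifitm1 at -1.59.

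Marker genes of other cell types differed between the libraries. In bulk RNA, fewer cells of a type and less RNA per cell cannot be told apart. The summed level of 5 general epithelial markers was 817 and 1339 CPM in the K-Ras libraries and 2806 and 2860 CPM in the K-Ras Mll4-/- libraries. Of these markers, 4 of 5 were separate and higher in the K-Ras Mll4-/- libraries, as were 29.9% of all genes tested. Their sums had the same order of libraries as Gbp2 and Igtp. The 8 endothelial markers summed to 6960 and 6692 CPM against 4366 and 3439 CPM. Of these, 6 of 8 were separate and lower in the K-Ras Mll4-/- libraries, as were 28.5% of all genes tested. Fibroblast markers (6 genes) summed to 2464 and 1121 CPM against 837 and 850 CPM, with 5 of 6 separate and lower (background 28.5%). The 4 ciliated cell markers summed to 126 and 726 CPM in K-Ras and to 72.6 and 74.3 CPM in K-Ras Mll4-/- libraries. All 4 were separate and lower (background 28.5%). The 3 club cell markers summed to 647 and 3430 against 702 and 539 CPM, with 1 of 3 separate and lower. Both the ciliated and the club cell lists were highest in K-Ras replicate 2, the library in which Oas2, Usp18 and Oasl1 were highest. Their part in the values of these genes was not tested.

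Leukocyte lists differed from each other in their order of the libraries. The 6 general leukocyte markers summed to 1452 and 676 CPM in the K-Ras libraries and to 1478 and 998 CPM in the K-Ras Mll4-/- libraries, and all 6 were lower in K-Ras replicate 2 than in replicate 1, whereas 27 of 34 members were higher there. Macrophage and monocyte markers (11 genes) summed to 5457 and 4553 against 5304 and 3254 CPM. Lyz2, which alveolar type 2 cells also express, made up most of these sums, at 4173 and 4211 against 4303 and 2822 CPM, and the other 10 genes were lower in K-Ras replicate 2 than in replicate 1. T and NK cell markers (7 genes) summed to 75.8 and 40.3 against 67.6 and 61.3 CPM, and B cell markers (4 genes) to 55.3 and 39.2 against 46.6 and 48.8 CPM. Neutrophil markers (4 genes) summed to 206 and 65.0 against 47.3 and 46.5 CPM, with all 4 separate and lower in the K-Ras Mll4-/- libraries (background 28.5%). The 5 markers of plasmacytoid dendritic cells, strong producers of type I interferon, summed to 26.7 and 36.03 against 93.0 and 32.9 CPM. Of the 5, 3 were highest in K-Ras replicate 2 (29.3% of all genes tested). The others were highest in K-Ras replicate 1 (1 marker) and K-Ras Mll4-/- replicate 1 (1 marker). Of the 93.0 CPM, 81.5 were of Ly6d alone. Siglech, the most specific of them, was at 1.18 and 3.93 CPM in the K-Ras libraries and at 2.29 and 2.36 CPM in the K-Ras Mll4-/- libraries, highest in K-Ras replicate 2. No listed marker was at 0 in all libraries. Alveolar type 2 markers (6 genes), which define the labelled tissue's surfactant-producing cells, summed to 17074 and 28567 CPM in the K-Ras libraries and to 23513 and 24720 CPM in the K-Ras Mll4-/- libraries. All 6 were higher in K-Ras replicate 2 than in replicate 1, and 5 of 6 were highest there, the library in which 18 of the 34 members were highest. Over all genes tested, 52.2% were higher in K-Ras replicate 2 than in replicate 1, and 29.3% were highest there. The part of these cell types in the members' values was not tested.

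**Figure D5:**
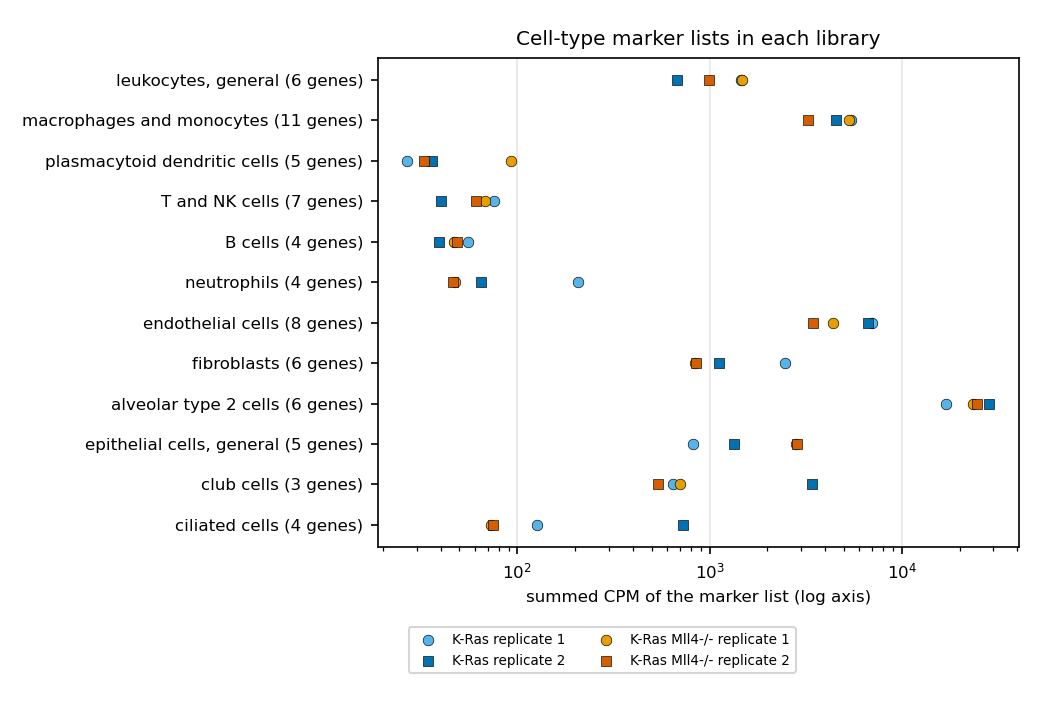
Summed CPM of each cell-type marker list in each library (log axis), 1 point per library. General epithelial markers are highest in the K-Ras Mll4-/- libraries, and general leukocyte markers are lowest in K-Ras replicate 2. The ciliated and club cell lists are highest in K-Ras replicate 2, at 726 and 3430 CPM.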

How the data were processed

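Total RNA from 4 CD45-depleted mouse lung tumours was sequenced (Illumina HiSeq, per the labels' protocols). Each deposited file lists whole, unscaled read counts, 1 line per gene symbol. CASAVA 1.4, STAR, HTSeq and the build mm9 are listed in the submitters' processing notes; the annotation and strand setting are not given in the sources used here. Per the file layout, multiply aligned reads stand in a tally line of their own and not with genes, which lowers counts of genes with close copies. The 5 tally lines held 60.1% to 65.6% of the counts listed for a library and were left out of library sizes and tests. This is not a share of reads, since how often a multiply aligned read was tallied is not stated.

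Groups and replicate numbers came from the sample titles. All 4 libraries entered 1 fit in edgeR 4.0.16 (R 4.3.3): default count filter (filterByExpr), TMM scaling, robust quasi-likelihood test and Benjamini-Hochberg adjustment over the genes tested, with calls at an adjusted p under 0.05. The SE of a log2 fold change is its size over the square root of F. Alternatives were other scalings and filters, a replicate block, DESeq2 1.42.0, limma-voom (limma 3.58.1), a likelihood ratio test, a non-robust fit and leaving out each library. The chi-square per gene between replicates, 122 in K-Ras and 47.3 in K-Ras Mll4-/-, exceeded the value of 1 that sampling noise gives.

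The members and lists were chosen with earlier results of these data known. Every member was named. Values in every library were due for members with an unadjusted p under 0.05, a log2 fold change of size 0.7 or more or 1 of the 3 highest length-scaled levels, and others were added where they show the pattern of their role group. Of the pathway lists, the rule named the receptor genes, ligands with reads, and genes with an unadjusted p under 0.05 and a log2 fold change of size 1 or more. Exon lengths and shared 50-base stretches came from GENCODE M21 and promoters from RefSeq, both on GRCm38 and matched by symbol. One item that the rule also names is not reported here.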

Additional observations from a re-analysis of the deposited data

How the results depend on the processing

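Of 476 member log2 fold changes under 14 alternatives, 447 kept direction and call, 24 reversed sign and 5 became called; 24 members reversed under none. Against 6 genes called and 0 members, the count filter of 1 read gave 44 genes and limma-voom 0. DESeq2 gave 1601 genes and 1 member, and the likelihood ratio test 1503 genes and 1 member. With the replicate block, where the shared numbers are only names, 217 genes and 1 member were called, Mx1 at 2.06 (edgeR adjusted p = 0.0309). Deviations from the group means correlated at 0.24 across genes between same-numbered libraries. Crossed libraries gave -0.24, the mirror value that 2 libraries a group fix in advance. The numbers of 2 pairs do not establish a pairing. Leaving out single libraries gave 0 to 524 genes and 0 to 2 members. The cause of these changes was not tested.

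Members that reversed were mostly near 0. With upper-quartile scaling and with total counts, Irf9 was at -0.037 and -0.027, Isg15 at -0.041 and -0.035, and Isg20 at -0.023 and -0.014. With the replicate block Ifit1 was at 0.029 and Isg15 at -0.026, and with limma-voom at 0.0049 and -0.047. Leaving out single libraries, log2 fold changes ran from -0.52 to 0.052 for Irf7, -0.15 to 0.19 for Irf9, -0.40 to 0.45 for Ifit1, -0.024 to 0.18 for Oas1a, -1.28 to 0.18 for Oas2, -0.54 to 0.043 for Oasl2, -0.46 to 0.38 for Isg15, -0.14 to 0.22 for Isg20, -0.17 to 0.32 for Rsad2 and -0.39 to 0.11 for Rtp4. With 2 libraries a group, an exact permutation test can reach no two-sided p under 0.333, and depth limits Isg15 and Mx2 most, at 36 reads in 1 library each.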

Other observations

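Further interferon-inducible GTPases were looked at after the values of Gbp2 and Igtp were seen, and are given as values only. Of 12 other guanylate-binding and immunity-related GTPase genes listed, 11 were tested and 0 called. Their median log2 fold change was 0.36, with 9 above 0 and 2 below, where 48.8% of all genes tested were above 0. Both K-Ras Mll4-/- libraries were above both K-Ras libraries for 5 of the 11, and below them for 1, Gbp9, where these shares were 29.9% and 28.5% of all genes tested. Gbp9 was at 144 and 94.1 CPM in the K-Ras libraries and at 86.5 and 78.8 CPM in the K-Ras Mll4-/- libraries (log2 fold change -0.53, SE 0.24, edgeR adjusted p = 0.279). K-Ras replicate 1 was the lowest library for 10 of the 11, against 27.3% of all genes tested. Iigp1 was at 47.9 and 86.1 CPM in the K-Ras libraries and at 96.5 and 128 CPM in the K-Ras Mll4-/- libraries (log2 fold change 0.75, SE 0.33, edgeR adjusted p = 0.275). Gbp6 was at 11.3 and 15.1 CPM against 20.4 and 19.8 CPM (log2 fold change 0.61, SE 0.21, edgeR adjusted p = 0.207). Cxcl9, the gene of an interferon gamma-induced chemokine, is named outside the naming rule and after its values were seen. It was at 1.73 and 9.44 CPM in the K-Ras libraries and at 15.3 and 17.2 CPM in the K-Ras Mll4-/- libraries. Its log2 fold change was 1.54 (SE 0.79, edgeR adjusted p = 0.325), and K-Ras replicate 1 was again lowest. Cxcl10, another listed chemokine gene, overlapped, at 1.18 and 2.27 against 2.21 and 1.80 CPM (log2 fold change 0.21, SE 0.46). Cxcl11 had 0 to 7 reads a library and was not tested.

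The IFITM genes lay the other way. All 3 were below both K-Ras libraries in both K-Ras Mll4-/- libraries, each with an unadjusted p under 0.05 and none called. Over all genes tested these shares were 28.5% and 21.8%, and the family was singled out after its values were seen. Ifitm2 had a log2 difference of -0.52 (SE 0.19, edgeR adjusted p = 0.225) and Ifitm3 one of -0.64 (SE 0.18, edgeR adjusted p = 0.180).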
